A study of Mus musculus with 18 samples.

Results

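Germline and meiotic cohesin genes were followed in mESCs (mouse embryonic stem cells) after knockdown of *Stag1*, the gene of a mitotic cohesin subunit. The group held 9 of the 18659 genes of the expression table, taken by name: *Stag3*, *Rec8* and *Smc1b* of meiotic cohesin, *Sycp1* and *Sycp3* of the synaptonemal complex, and the germ cell genes *Dazl*, *Ddx4*, *Mael* and *Stk31*. RNA depleted of rRNA was sequenced in 16 libraries of male E14 mESCs grown in serum with LIF, and the values are reads per gene divided by 1 size factor per library, here called normalized values. In 3 replicate sets the cells received, for 24 h, a scrambled control siRNA (scr) or a siRNA to *Stag1*. The latter was SP (a commercial pool), 3p (commercial siRNAs to the 3′ end of the transcript), 5p (a custom duplex to the 5′ end) or SATS. SATS was enzymatically prepared siRNA to transcripts from an upstream start site. The siRNAs of 3p have catalogue numbers that, apart from the prefix, are also among those of SP, so both may share siRNAs. Set 1 had 1 scr library beside 3 of SP, named 1a, 1b and 1c, whose difference is not stated. In sets 2 and 3, scr, SP, 3p, 5p and SATS each had 1 library. Untreated cells joined them in set 2 and cells with luciferase siRNA in set 3. Like SATS, the luciferase siRNA was enzymatically prepared, while SATS is set against scr in the main fits. All libraries came from 1 cell line, and the siRNAs lowered *Stag1* without removing it.

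Cohesin is a ring of SMC and kleisin proteins that holds sister chromatids together and shapes chromatin loops. In meiosis the subunits SMC1A, RAD21 and STAG1 or STAG2 are largely replaced by SMC1B, REC8 or RAD21L, and STAG3, and the synaptonemal complex is built on the chromosome axes that this cohesin organizes. In somatic and embryonic stem cells germline genes are held low by DNA methylation and by Polycomb complexes, among them a PRC1 complex that contains E2F6, MGA and MAX, which meet DNA at E2F motifs and E-boxes.

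The promoters of *Sycp3*, *Ddx4*, *Stk31* and *Stag3* are printed. The first 3 genes passed the test in at least 1 comparison when the replicate set was fitted as a block. In the main fit, which is without the block, none of the 9 genes passed. *Stag3* is the meiotic paralog of the knockdown target. Each sequence runs from 250 bases before to 50 bases after the start in RefSeq (GRCm38.p6), 5′ to 3′ on the gene's strand, and capitals mark the E-box CACGTG and the E2F6 motif GCGGGAA (or its reverse complement TTCCCGC). The windows are chr10:88459337-88459636 (plus strand) for *Sycp3*, chr13:112652261-112652560 (minus strand) for *Ddx4*, chr6:49395289-49395588 (plus strand) for *Stk31* and chr5:138280259-138280558 (plus strand) for *Stag3*.
Sycp3: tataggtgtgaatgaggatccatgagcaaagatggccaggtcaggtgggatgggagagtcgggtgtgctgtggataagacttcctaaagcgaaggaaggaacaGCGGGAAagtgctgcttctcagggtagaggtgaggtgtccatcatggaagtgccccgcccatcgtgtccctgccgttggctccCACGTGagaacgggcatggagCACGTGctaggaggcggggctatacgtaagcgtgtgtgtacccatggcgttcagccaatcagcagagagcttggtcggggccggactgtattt
Ddx4: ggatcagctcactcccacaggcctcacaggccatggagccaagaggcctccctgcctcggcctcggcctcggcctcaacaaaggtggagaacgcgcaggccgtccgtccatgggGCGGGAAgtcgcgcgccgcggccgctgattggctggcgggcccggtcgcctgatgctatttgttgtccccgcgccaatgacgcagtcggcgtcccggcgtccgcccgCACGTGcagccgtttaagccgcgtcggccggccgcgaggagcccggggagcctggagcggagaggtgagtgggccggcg
Stk31: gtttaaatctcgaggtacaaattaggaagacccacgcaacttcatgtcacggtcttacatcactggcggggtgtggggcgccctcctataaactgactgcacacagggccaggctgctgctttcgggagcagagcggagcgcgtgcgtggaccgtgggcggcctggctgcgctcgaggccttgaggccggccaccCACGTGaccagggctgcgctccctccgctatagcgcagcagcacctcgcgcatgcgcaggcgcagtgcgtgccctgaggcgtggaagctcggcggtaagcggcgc
Stag3: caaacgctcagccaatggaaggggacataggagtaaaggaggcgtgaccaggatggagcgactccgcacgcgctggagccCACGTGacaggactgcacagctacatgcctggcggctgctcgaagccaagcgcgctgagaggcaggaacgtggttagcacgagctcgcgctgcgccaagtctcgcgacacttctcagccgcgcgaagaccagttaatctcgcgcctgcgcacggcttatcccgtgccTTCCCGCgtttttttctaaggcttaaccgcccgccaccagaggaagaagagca

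All 9 genes had a promoter in the RefSeq table, *Stk31* a further one that overlaps the first. With both strands searched, the E-box was found in 6 of the 9 promoters and the E2F6 motif in 4, against 9.15% and 7.28% of the 16814 promoters of genes in the expression table. Of the 9, *Sycp3*, *Ddx4* and *Stag3* held both motifs, as did 0.737% of those promoters, and *Rec8* and *Dazl* held neither. *Sycp3* alone held 2 E-boxes, which began 64 and 43 bases upstream of the start. The 9 promoters held 15 to 38 CpG, where the median over promoters of genes in the table was 17. These are matches of letters, and binding was not measured. In GRCm38 coordinates of GENCODE, *Stag3* spans 138280240 to 138312393 of chromosome 5 (plus strand), *Rec8* 55618037 to 55625395 of chromosome 14 (plus strand) and *Smc1b* 85064689 to 85131964 of chromosome 15 (minus strand). *Sycp1* spans 102818499 to 102936100 of chromosome 3, *Dazl* 50279395 to 50293636 of chromosome 17 and *Mael* 166201201 to 166238747 of chromosome 1, all on the minus strand.

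Detection came first, since these genes are associated with germ cells. Every one of the 9 had reads in all 16 libraries. The fewest were 4 reads, for *Sycp1* in scr of set 1, and over sets 2 and 3 the lowest count was 43 reads, for *Smc1b* in scr of set 3. Set 1 held 9023224 to 14040830 reads on genes per library, of which 69.2% to 79.1% were *Rn45s* (precursor ribosomal RNA), and sets 2 and 3 held 32137666 to 45660840 reads with 14.7% to 23.9% of *Rn45s*. A value of 3 reads, the floor used for detection, stood for a normalized value of 9.65 to 24.2 in set 1 and of 1.06 to 1.44 in sets 2 and 3. The 8 markers of mESCs fixed for the check were read in every library (*Pou5f1* at 7128 to 11940), and of 7 spermatid markers the 2 in the table summed to at most 7 reads. *Stag1* stood at 17.3% to 32.8% of scr of the same set in the 9 libraries of SP, 3p and 5p and at 49.7% and 50.5% in the SATS libraries. Fewer cells that express a gene and less RNA per cell cannot be told apart in these bulk libraries.

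Per kb of exon, *Sycp3*, a lateral element protein of the synaptonemal complex, had the highest level of the 9 in the scr libraries, with normalized values per kb of 339, 168 and 209 in sets 1, 2 and 3. In sets 2 and 3 next came *Mael* (102 and 109) and *Ddx4* (104 and 95.5), whose levels overlapped, and then *Stag3* (69.3 and 48.9). *Rec8* (33.3 and 32.4) and *Stk31* (33.8 and 27.9) overlapped too. *Dazl* (17.0 and 16.2) and *Sycp1* (9.44 and 9.70) followed, and the range of *Smc1b* (8.71 and 4.21) lay below that of *Sycp1*. *Rad21l*, the other meiotic kleisin, which is no member, had 2.02 and 5.74 per kb from 8 and 24 reads. The mitotic paralogs *Rad21*, *Smc1a* and *Stag2* stood above the meiotic genes *Rec8*, *Smc1b* and *Stag3* in sets 2 and 3, with *Rad21* at 1003 and 999.6 per kb, *Smc1a* at 291 and 319.8, and *Stag2* at 219 and 349.97.

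**Figure D1:**
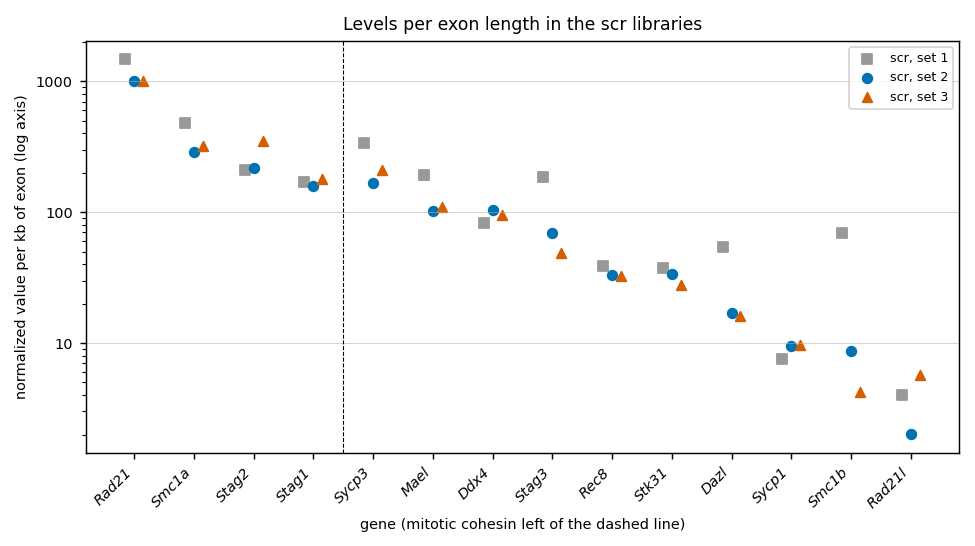
Normalized value per kb of exon (log axis) of 4 mitotic cohesin genes (left of the dashed line), the 9 germline genes and *Rad21l* in the 3 scr libraries, 1 point per set. In sets 2 and 3 *Sycp3* was highest of the 9, at 168 and 209 per kb, and *Smc1b* lowest, at 8.71 and 4.21.

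Levels in set 1 differed from those in the other sets already in scr. The normalized value of *Stag3* in scr was 1065 in set 1 against 397 and 280.4 in sets 2 and 3, that of *Smc1b* was 281 against 35.2 and 17.1, and that of *Dazl* was 208 against 65.0 and 61.9. *Ddx4* (248, 313 and 288) and *Rec8* (114, 97.7 and 95.2) stood closer together across the sets. The share of *Rn45s* and the depth changed with the set as well, so the set and the library make-up cannot be told apart. Each library is therefore set beside scr of its own set, and the comparisons with scr all share those scr libraries.

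**Figure D2:**
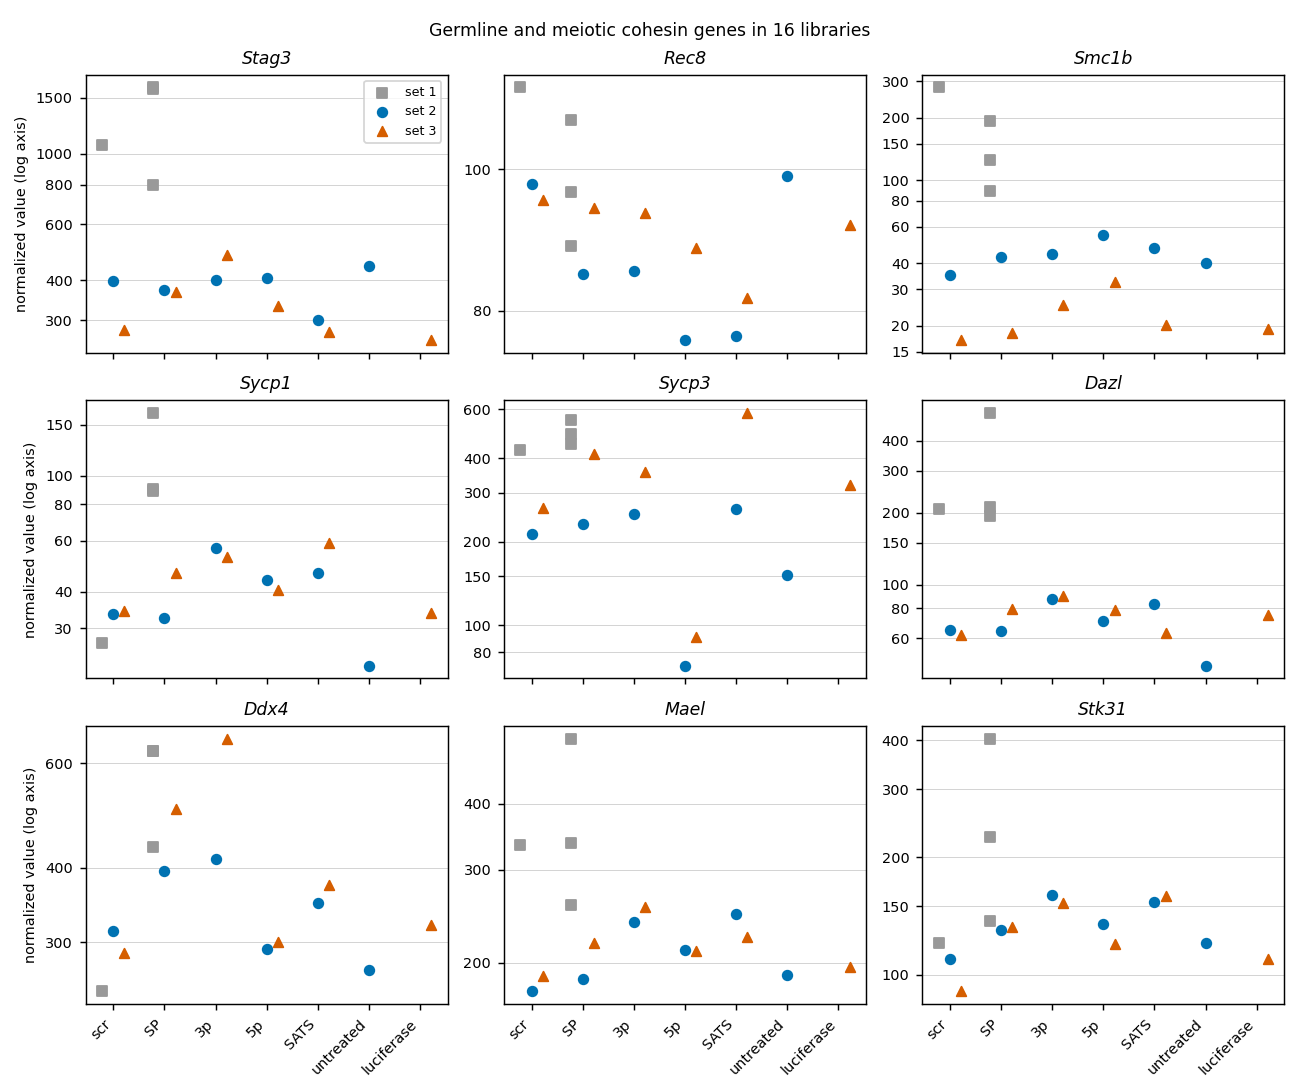
Normalized value (log axis, each panel with its own range) of the 9 genes by group, 1 point per library, with colour and shape for the set. *Sycp3* in the 5p libraries (71.6 and 90.7) was below all other libraries of the panel, and set 1 stood above the other sets for *Stag3* and *Smc1b*.

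*Sycp3* had the largest difference of the 9 genes in sets 2 and 3. Its normalized values in set 2 were 213 in scr, 232 in SP, 252 in 3p, 71.6 in 5p, 261 in SATS and 152 in untreated cells. In set 3 they were 264 in scr, 415 in SP, 357 in 3p, 90.7 in 5p, 582 in SATS and 319.9 with luciferase siRNA. Both 5p libraries were thus below every other library, at 33.7% and 34.3% of scr of their set. The reads behind these shares were 150 against 507 and 196 against 666, and the 95% exact (Clopper-Pearson) counting intervals of the ratios were 0.279 to 0.405 and 0.291 to 0.403. Intervals of this kind cover counting error only, since reads without molecular identifiers are not independent molecules.

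Under 5p the log2 fold change of *Sycp3* was −1.54 (SE 0.17 with the replicate set fitted as a block and 0.42 without it). On this scale, log2(value + 1), the change of low genes is understated. Its adjusted p was 0.000402 with the block and 0.959 without it (limma with Benjamini-Hochberg adjustment over 16490 genes), and 0.000595 by edgeR with the block. Against 3p, *Sycp3* in 5p was lower by a log2 fold change of −1.88 (SE 0.17 with the block), with an adjusted p of 8.35e-05 with the block and 0.497 without it (limma with Benjamini-Hochberg adjustment). Both calls held in the blocked fit when any 1 library of the groups compared was left out, with adjusted p of 0.000470 to 0.0258 against scr and of 0.000126 to 0.00252 against 3p (limma with Benjamini-Hochberg adjustment), in fits where the lone library of a group is assumed to vary like the others.

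In the SATS libraries *Sycp3* went the other way, at 123% and 220.2% of scr. The log2 fold change was 0.72 (SE 0.17 with the block), and the adjusted p was 0.0376 with the block and 1.00 without it (limma with Benjamini-Hochberg adjustment). Leaving out SATS 2 kept that call (adjusted p = 0.00302), and leaving out scr 2, scr 3 or SATS 3 ended it (0.122, 0.435 and 0.470, limma with Benjamini-Hochberg adjustment and the block). For SP the shares of scr in sets 1 (1a, 1b and 1c), 2 and 3 were 114%, 128%, 105%, 109% and 157%. The adjusted p was 0.759 over 3 sets and 0.359 in sets 2 and 3, both with the block (limma with Benjamini-Hochberg adjustment).

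*Sycp3* lies on chromosome 10 (GRCm38, 88459569 to 88473236, plus strand). It overlaps *Chpt1* of the opposite strand at an exon, and strand was used in counting for paired-end libraries only, which are not named. *Chpt1* had normalized values of 70.9 and 87.3 in scr and 74.9 and 89.7 in 5p of sets 2 and 3. The 5p siRNA is given as 1 strand in the study's methods, without naming the guide. The reverse complement of that strand, with its final UU left out as an overhang, was taken here as the guide. The heptamer GTGGAAG pairs with bases 2 to 8 of this guide and was searched on the sense strand of spliced transcripts. A coding transcript of *Sycp3* (1139 bases) held it at base 168, in the coding sequence, and at base 985, in the 3′ UTR. Both sites are shown with the heptamer in capitals, at chr10:88462473-88462501 and chr10:88473070-88473098 of the plus strand.
Coding site: gatggtgcctgGTGGAAGaaagcattctg
3′ UTR site: agcttatttaaGTGGAAGatttttgttcc

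At least 1 such heptamer was found in 39.0% and at least 2 in 11.2% of 16122 protein-coding genes of the table. Among the 9 genes *Rec8* held 2 as well, *Smc1b* and *Ddx4* held 1, and *Stag3*, *Sycp1*, *Dazl*, *Mael* and *Stk31* held none. *Rec8* in 5p stood at 78.1% and 92.8% of scr, *Ddx4* at 93.3% and 104%, and *Smc1b* at 154% and 189.8%. The part of these matches in the *Sycp3* values was not tested.

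*Ddx4*, which encodes the germ cell RNA helicase VASA and lies on chromosome 13 (112598333 to 112652475, minus strand), was highest in the 3p libraries of its sets. In set 2 the normalized values were 313 in scr, 395 in SP, 414 in 3p, 292 in 5p, 349 in SATS and 269 in untreated cells. In set 3 they were 288 in scr, 503 in SP, 659.8 in 3p, 301 in 5p, 374 in SATS and 319.9 with luciferase siRNA. The SP, 3p and SATS libraries were all above both scr libraries, as were 11.4%, 9.61% and 14.2% of all tested genes. The 5p libraries overlapped with scr.

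With the block *Ddx4* rose under 3p, by a log2 fold change of 0.80 (SE 0.14), with an adjusted p of 0.0407 with the block and 1.00 without it (limma with Benjamini-Hochberg adjustment). Leaving out 3p 2 kept the call (adjusted p = 0.00178), and leaving out scr 2, scr 3 or 3p 3 ended it (0.106, 0.514 and 0.369, limma with Benjamini-Hochberg adjustment and the block). In 5p *Ddx4* was lower than in 3p by −0.82 (SE 0.14), with an adjusted p of 0.00713 with the block and 0.736 without it (limma with Benjamini-Hochberg adjustment), which became 0.117 without 3p 3 and 0.137 without 5p 3. The log2 fold change of 5p against scr was −0.02 (SE 0.14).

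In set 1 *Ddx4* was 248 in scr (37 reads) and 629.9, 434 and 628 in SP 1a, 1b and 1c. All 5 SP libraries were thus above scr of their set, at 126% to 254% of it. Those of set 1 share 1 scr library, and the share of all genes with such a run was not computed. Over 3 sets the log2 fold change was 0.77 (SE 0.17 with the block and 0.19 without it), with an adjusted p of 0.759 and 1.00 (limma with Benjamini-Hochberg adjustment). With the reads of SP 1a, 1b and 1c summed to 1 sample, edgeR with the block gave 0.67 and an adjusted p of 0.0173. In sets 2 and 3 the change was 0.57 (SE 0.14, adjusted p = 0.102 with the block, limma with Benjamini-Hochberg adjustment).

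*Stk31*, a tudor domain kinase of germ cells on chromosome 6 (49395604 to 49469501, plus strand), was above scr of its set in all 13 libraries of the other groups. Its normalized values in set 2 were 109 in scr, 130.3 in SP, 160.0 in 3p, 135 in 5p, 154 in SATS and 120.4 in untreated cells. In set 3 they were 90.4 in scr, 133 in SP, 152 in 3p, 119.8 in 5p, 159 in SATS and 109.9 with luciferase siRNA. The untreated and luciferase libraries, which had no siRNA to *Stag1*, were at 110.0% and 122% of scr, so values above scr were also seen without knockdown. Libraries of a set share their scr library, so the 13 values are not independent. The share of all genes with such a run was not computed.

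With the block *Stk31* rose under 3p (log2 fold change 0.64, SE 0.12, adjusted p = 0.0458 with the block and 1.00 without it, limma with Benjamini-Hochberg adjustment) and under SATS (0.65, SE 0.12, adjusted p = 0.0209 and 1.00). The 3p call ended when any 1 of scr 2, scr 3, 3p 2 or 3p 3 was left out (adjusted p of 0.102 to 0.514), and the SATS call was kept without SATS 2 (0.0174) and ended without scr 2, scr 3 or SATS 3 (0.0898, 0.286 and 0.361, limma with Benjamini-Hochberg adjustment and the block). In set 1 the values were 121 in scr (18 reads) and 404, 225 and 137 in SP 1a, 1b and 1c, and with 95% exact counting intervals the ratios were 3.35 (2.00 to 5.93), 1.87 (1.10 to 3.33) and 1.136 (0.550 to 2.34). The 3 SP libraries of set 1 thus ranged from near scr to well above it.

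The remaining germ cell genes were *Mael*, of the piRNA pathway, and *Dazl*, an RNA-binding regulator of translation in germ cells. *Mael* was 177 and 189 in scr, 239 and 255 in 3p, 212 and 210.5 in 5p, 248 and 224 in SATS and 187 and 218 in SP of sets 2 and 3. The untreated and luciferase libraries were at 190 and 197, or 107% and 104% of scr of their set. The 3p, 5p and SATS libraries were all above both scr libraries, as were 9.61%, 14.5% and 14.2% of all tested genes. For *Mael* the adjusted p with the block was 0.124, 0.379 and 0.0884 in these groups (limma with Benjamini-Hochberg adjustment). *Dazl* was 65.0 and 61.9 in scr, 87.3 and 89.9 in 3p, 70.6 and 78.6 in 5p, 83.2 and 62.8 in SATS and 64.2 and 79.0 in SP, and its largest log2 fold change was 0.48 (SE 0.17) in 3p, with an adjusted p of 0.314 with the block (limma with Benjamini-Hochberg adjustment). *Dazl* without siRNA, in the untreated library, was 46.0, the lowest of its 16 values.

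*Sycp1*, the transverse filament protein of the synaptonemal complex, was 33.6 and 34.5 in scr, 32.6 and 46.3 in SP, 56.5 and 52.9 in 3p, 43.9 and 40.7 in 5p and 46.6 and 58.9 in SATS. The libraries of 3p, 5p and SATS were all above both scr libraries, as were 9.61%, 14.5% and 14.2% of all tested genes. Without *Stag1* siRNA, the untreated library was at 22.3, the lowest of the 16 values and 66.5% of scr (95% exact counting interval of the ratio 0.459 to 0.957). The luciferase library was at 33.8, or 97.9% of scr. The log2 fold change of *Sycp1* was 0.67 (SE 0.19) in 3p and 0.61 (SE 0.19) in SATS. With the block the adjusted p was 0.177 and 0.0962 (limma with Benjamini-Hochberg adjustment). For set 1, the 3 SP libraries held 35, 28 and 11 reads against 4 in scr, and the ratios were 6.14 (95% exact counting interval 2.20 to 23.8), 3.36 (1.18 to 13.2) and 3.31 (0.980 to 14.2). That set has 1 scr library, so its ratios have no replicate check.

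Among the meiotic cohesin genes none passed the threshold in any of the 6 comparisons with scr as the controls, with or without the block. *Rec8*, the meiotic kleisin, was below scr of its set in all 11 knockdown libraries, at 77.8% to 98.8% of it. It stood at 101% and 96.1% in the untreated and luciferase libraries. The lowest share, that of SP 1c, came from 11 reads against 17 in scr (exact counting interval of the ratio 0.329 to 1.76). Among the knockdown libraries, such an interval lay wholly below scr only for 5p and SATS of set 2 (0.635 to 0.960 and 0.651 to 0.951). Libraries of a set share their scr library, so the 11 values are not independent. The share of all genes with such a run was not computed. The log2 fold changes of *Rec8* in sets 2 and 3 were −0.11 for SP, −0.11 for 3p, −0.23 for 5p and −0.28 for SATS, each with an SE of 0.13 and an adjusted p of at least 0.265 with the block (limma with Benjamini-Hochberg adjustment).

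*Stag3*, the meiotic STAG subunit, was 397 and 280.4 in scr, 374 and 368 in SP, 402 and 479.7 in 3p, 408 and 333 in 5p and 299 and 275 in SATS of sets 2 and 3. The scr libraries differed from each other by more than most knockdowns did from scr of their set, and the direction of SP changed between the sets. For 3p the log2 fold change was 0.40 (SE 0.14, adjusted p = 0.310 with the block, limma with Benjamini-Hochberg adjustment). In set 1 SP 1a and 1b stood at 149.7% and 152% of scr and SP 1c at 74.9%.

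*Smc1b*, the meiotic SMC1 paralog, was 35.2 and 17.1 in scr and 54.4 and 32.4 in 5p, so that the levels of the groups overlapped although 5p was at 154% and 189.8% of scr within its sets. Its log2 fold change in 5p was 0.75 (SE 0.19 with the block and 0.60 without it), with an adjusted p of 0.0598 and 1.00 (limma with Benjamini-Hochberg adjustment). In sets 2 and 3 all 8 knockdown libraries were above scr of their set, and in set 1 the 3 SP libraries were below it, at 68.5%, 44.6% and 31.5%, from 41, 39 and 11 reads against 42. The untreated and luciferase libraries stood at 114% and 113%. Libraries of a set share their scr library, and the share of all genes with either run was not computed.

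**Figure D3:**
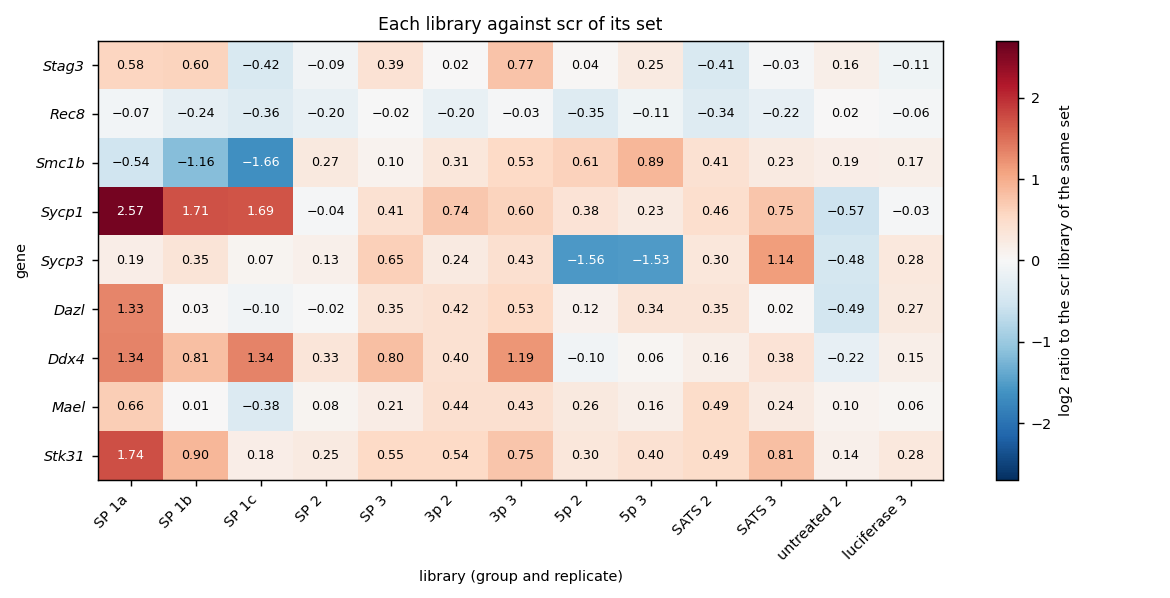
Log2 ratio of the normalized value + 1 to that of scr of the same set, for the 9 genes (rows) in the 13 other libraries (columns), with the value in each cell and its colour from blue (below scr) to red (above). *Smc1b* in SP 1c (−1.66) and *Sycp3* in 5p (−1.56 and −1.53) hold the lowest cells, and *Sycp1* in SP 1a (2.57) the highest.

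Taking the 9 genes together, without the block 0 were called in all 6 comparisons, while 0% of all tested genes were called in SP over 3 sets, 0.00606% in SP and in 3p of sets 2 and 3, 0.0121% in 5p, 0% in SATS and 0% in 5p against 3p (limma with Benjamini-Hochberg adjustment). Their adjusted p in these fits was 0.959 to 1.00 against scr and 0.497 to 1.00 in 5p against 3p. At an unadjusted p under 0.05 they numbered 1, 2, 5, 1, 3 and 2 in that order, where the shares of all genes were 0.526%, 2.49%, 1.73%, 3.63%, 3.94% and 4.09%. By edgeR without the block 0 were called in all 6, with the same shares of all genes as limma. By DESeq2 1 was, *Sycp3* in 5p against 3p (adjusted p = 0.00384), where 0.54% of all genes were called. DESeq2 gave an adjusted p for 2 of the 9 in 3p and 5 of the 9 in SATS and for all 9 in the other comparisons. It called none of those in the comparisons with scr, where it called 0.00626%, 0.127%, 0.0485%, 0.4% and 0.0182% of all genes, for SP over 3 sets and then SP, 3p, 5p and SATS of sets 2 and 3.

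Blocking on the replicate set, limma called 0 of the 9 in SP over 3 sets (0% of 15970 genes), 0 in SP of sets 2 and 3 (0.746% of 16490), 2 in 3p (0.285%), 1 in 5p (2.37%), 2 in SATS (2.64%) and 2 in 5p against 3p (3.26%). Those in 3p and SATS were higher, as were 0.0485% and 1.9% of all genes, and those in 5p and in 5p against 3p were lower, as were 1.71% and 1.95%. By edgeR with the block, the members called were 1 (*Ddx4*), 0, 2, 1, 2 and 2 in the same order, and the shares of all genes 0.413%, 0.813%, 0.303%, 2.41%, 3.34% and 3.21%. With the untreated and luciferase libraries added to the controls, an alternative chosen after seeing the data, and the block, 4 of the 9 were called in 3p (1.31% of 16684 genes), 2 in 5p (6.71%), 4 in SATS (10.7%) and 1 in SP (2.32%). The genes this added were *Ddx4* in SP, *Sycp1* and *Mael* in 3p and in SATS, and *Smc1b* in 5p (log2 fold change 0.66, adjusted p = 0.0230, limma with Benjamini-Hochberg adjustment).

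**Figure D4:**
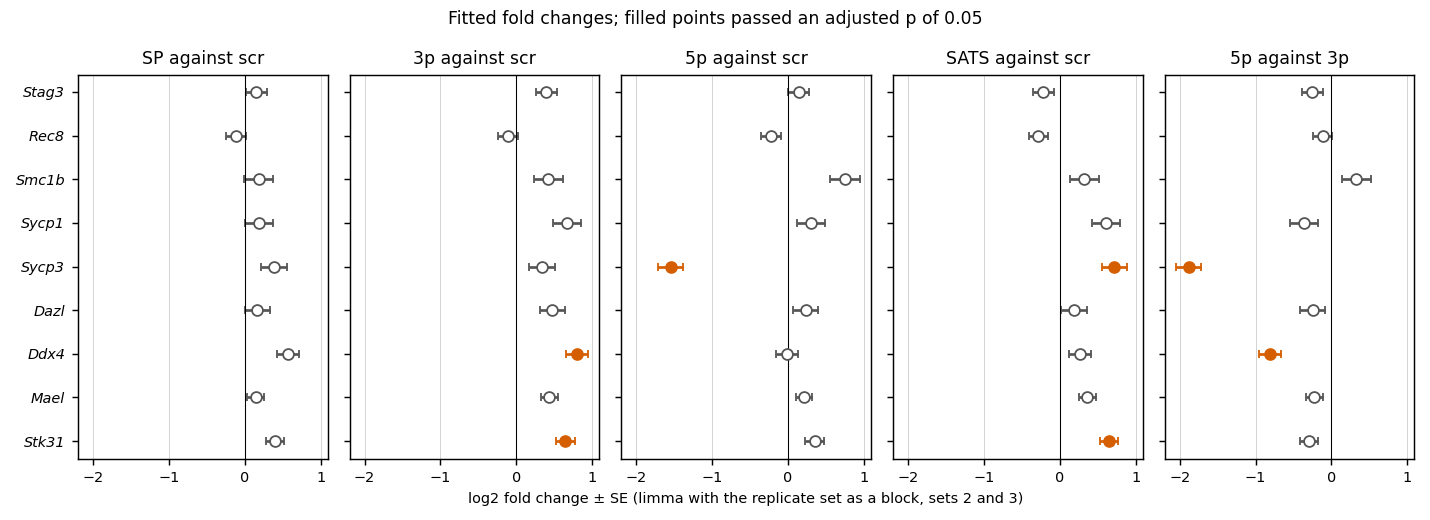
Log2 fold change and SE (bars) of the 9 genes in 5 comparisons of sets 2 and 3, from the limma fit that blocks on the replicate set. Filled points had an adjusted p under 0.05, which were *Ddx4* and *Stk31* in 3p, *Sycp3* in 5p, *Sycp3* and *Stk31* in SATS, and *Sycp3* and *Ddx4* in 5p against 3p. Without the block none of the 9 had an adjusted p under 0.05.

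By direction alone, 8 of the 9 were above scr of their set in both sets under 3p, where 25.9% of all tested genes were, and *Rec8* was below in both (29.7% of all genes). For SP 5 were above in both sets (28.5% of all genes), for 5p 6 (32.7%) and for SATS 7 (32.4%). *Rec8* was below in both sets for SP (29%), *Rec8* and *Sycp3* for 5p (30.1%) and *Rec8* and *Stag3* for SATS (33.8%). Between 5p and 3p, 7 were lower in 5p in both sets, against 24.9% of all genes, and *Smc1b* was higher in both (30.1%).

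Both libraries stood above both scr libraries for 2 of the 9 in SP (11.4% of all genes), 6 in 3p (9.61%), 4 in 5p (14.5%) and 4 in SATS (14.2%). They stood below both for *Rec8* in SP (12.1%), 3p (11.7%) and SATS (15.7%) and for *Rec8* and *Sycp3* in 5p (13.7%), and in 5p 6 of the 9 were below both 3p libraries (10.7%). The median log2 fold change of the 9 was 0.18 in SP, 0.43 in 3p, 0.21 in 5p and 0.32 in SATS of sets 2 and 3, −0.25 in 5p against 3p and 0.30 in SP over 3 sets, while the medians of all genes lay between −0.0041 and 0.016. Without *Stag1* siRNA, 5 of the 9 were above scr in the untreated library (50.1% of all genes) and 6 in the luciferase library (47.4%), with medians of 0.02 and 0.15. Since every comparison with scr uses the same scr libraries, these counts are not independent of each other.

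In set 1, 7 of the 9 were above scr in SP 1a (44.9% of all genes), 7 in 1b (46.4%) and 4 in 1c (47.8%), with median log2 ratios of 0.66, 0.35 and −0.10. Library 1a was highest of the SP libraries of its set for 7 of the 9, all but *Stag3* and *Sycp3*. The share of all genes for which it was highest was not computed, so this count has no background. For *Ddx4* 1a and 1c were nearly equal (629.9 and 628). The summed level of 7 markers of 2-cell-like cells was 301 in scr and 470, 38.6 and 72.5 in 1a, 1b and 1c, and its part in these values was not tested.

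Marker sums of other cell types followed the set more than the siRNA. The 7 fibroblast markers, as a check for feeder cells, summed to 2595 to 5693 in set 2 and 341 to 551 in set 3. *Col1a1* alone reached 4627, while *Dcn* and *Lum* had at most 15 and 4 reads in any library. The study's methods give gelatin-coated plates for cells in serum. Markers of 2-cell-like cells summed to 194 to 283 in set 2 and 33.3 to 78.6 in set 3. In set 3 the 2-cell-like sum was 33.3 in scr and 78.6 in 5p, and in set 2 it was 283 and 276. The 6 markers of primordial germ cells, all in the table, summed to 1430.2 and 998 in scr of sets 2 and 3. The sums were 1366 and 988 in SP, 1366 and 885 in 3p, 1264 and 870.1 in 5p and 1531 and 1183 in SATS. Within these sets the sum was lower than in scr in both libraries of SP, 3p and 5p and higher in both of SATS. Its part in the values of the 9 genes was not tested.

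Lists of related genes, chosen with earlier results of these data known, put the 9 in their pathways. All calls of listed genes given here are from the fit with the block, and without it none of them was made except that of *Stag1* in SP, 3p and 5p. The fit with the block called 0% of all genes in SP over 3 sets. In sets 2 and 3 it called 0.746% in SP, 0.285% in 3p, 2.37% in 5p, 2.64% in SATS and 3.26% in 5p against 3p. Of the synaptonemal complex and axis list (13 genes, 9 tested), 1 gene was called higher under SATS and 1 lower under 5p with the block, both *Sycp3*, and in 5p against 3p *Syce1*, a central element protein, was lower as well (log2 fold change −0.61, SE 0.12, adjusted p = 0.0122 with the block and 1.00 without it, limma with Benjamini-Hochberg adjustment). *Syce1* was 149 and 119 in 3p and 98.3 and 76.8 in 5p. Of the list of germ cell RNA-binding and piRNA genes (24 genes, 23 tested), those called were *Ddx4* and *Stk31* and, in 5p against 3p, *Tdrd12*, a tudor protein of the piRNA pathway (−0.57, SE 0.08, adjusted p = 0.00225 with the block and 0.590 without it), at 694 and 580.1 in 3p and 449.6 and 405 in 5p. The median log2 fold change of this list was 0.27 in 3p and 0.01 in 5p.

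None of the 16 or 17 tested genes of meiotic recombination (19 listed) were called in any of the 6 comparisons with the block. With 0% to 3.26% of all genes called per comparison, an absence of calls in a list this short says little. Of the meiotic entry list (11 genes, 9 tested), only *Taf7l*, a germ cell TFIID subunit, was called, in 5p against 3p (log2 fold change −1.25, SE 0.23, adjusted p = 0.00824 with the block and 0.874 without it, limma with Benjamini-Hochberg adjustment). It was 42.0 and 91.6 in 3p and 25.8 and 25.4 in 5p.

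Among 18 genes for repressors of germline genes, all tested, *Rnf2*, a catalytic subunit of PRC1, was higher in 5p than in 3p (0.51, SE 0.09, adjusted p = 0.00523). Under SATS *Cbx3* (0.66, SE 0.14, adjusted p = 0.0301) and *Hells* (0.37, SE 0.08, adjusted p = 0.0321) were higher and *Ehmt1*, a histone H3 lysine methyltransferase, was lower (−0.32, SE 0.07, adjusted p = 0.0368). These values are from limma with Benjamini-Hochberg adjustment and the block, without which each of these genes had an adjusted p of 1.00. None of the 18 were called in SP, 3p or 5p against scr, where at most 2.37% of all genes were called with the block.

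Of mitotic cohesin (15 genes, 12 tested), *Stag1*, the target, was called in all 4 comparisons with scr in sets 2 and 3 with the block, and in SP, 3p and 5p but not in SATS (adjusted p = 0.633) without it. *Stag2* was lower under 5p (log2 fold change −0.40, SE 0.08, adjusted p = 0.0229) and higher under SATS (0.52, SE 0.08, adjusted p = 0.0154), and 5p was below 3p by −0.56 (SE 0.08, adjusted p = 0.00247). The acetyltransferase genes *Esco1* (0.50, SE 0.10) and *Esco2* (0.40, SE 0.08) were higher under SATS, with an adjusted p of 0.0269 for each (limma with Benjamini-Hochberg adjustment and the block, as for *Stag2*). Without the block the adjusted p of *Stag2*, *Esco1* and *Esco2* in these comparisons was 1.00. *Rad21* and *Smc1a* were not called in any comparison.

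Finally, the genes whose pattern was most like that of each of the 9 were taken by Pearson's r of the log2 ratio to scr over the 10 other libraries of sets 2 and 3, among about 11025 genes whose mean value reached 50. For *Sycp3* these were *Ubap1* (r = 0.99), *Gadd45b* (0.98) and *Tbc1d15* (0.97), for *Ddx4* they were *Zbtb18* (0.95), *Cpeb1* (0.93) and *Rasef* (0.93), and for *Stk31* they were *Cyth3* (0.95), *Tex11* (0.93) and *Cmc1* (0.92). *Tex11* also came first for *Sycp1* (0.90), before *Nsdhl* (0.90). *Stag3* was most like *Sema4g* (0.92), *Rec8* like *Ppox* (0.94), *Smc1b* like *Lrp11* (0.93), *Dazl* like *Rftn1* (0.93) and *Mael* like *Aacs* (0.90). Within the 9 the highest r was 0.87, between *Stk31* and *Sycp1*, and the lowest −0.72, between *Smc1b* and *Sycp3*. All these libraries share the scr library of their set, and the values are descriptions over 10 libraries.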

How the data were processed

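RNA-seq values of 16 libraries from cells in serum were used, and 2 libraries from cells in 2i were not. The authors aligned reads to mm10 with HISAT2, counted them with featureCounts and divided the counts by DESeq2 (1.14.1) size factors, and the deposited values are this normalized signal. Paired-end and single-end reads were used, which is not stated per library. Dividing by the value of 1 read gave whole reads (within 0.001) for 100% of the deposited values.

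Genes whose values summed to 10 or more entered limma 3.58.1 (R 4.3.3, eBayes with trend) as log2(value + 1), and a call is a p under 0.05 after Benjamini-Hochberg adjustment. SP was set against scr over 3 sets, with SP 1a, 1b and 1c averaged for limma. In sets 2 and 3, SP, 3p, 5p and SATS were set against scr, and 5p against 3p. These fits used 10 libraries that shared 1 estimate of the spread. edgeR 4.0.16 and DESeq2 1.42.0 were run on the recovered reads, with those of SP 1a, 1b and 1c summed to 1 sample. The sets pair the samples, since the labels number them and deviations from the group means correlated at 0.80 (0.77 to 0.82) over 3 sets and at 0.86 (0.81 to 0.93) in sets 2 and 3. The fit without the block is the main one, because the study's methods give no block, and its SE includes the difference between sets. Values of the fit with the block are named as such. The study describes its libraries as independent replicates. The labels do not say whether sets were separate cultures, and p-values measure the spread between these libraries.

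The genes named were the 9 members, *Stag1*, the mitotic paralogs, up to 3 called genes per list and comparison, and up to 3 genes of like pattern. *Rad21l* and *Chpt1* were added after their values were seen. Members, lists and tests were chosen with earlier results of these data known. Promoters came from RefSeq (GRCm38.p6) and gene positions and exon lengths from GENCODE on GRCm38. Of the listed genes, 10 were not found in the table. Fits were tested on simulated data. The alternatives were other pseudocounts (0.1 and 10), no filter on low values, scaling by TMM without *Rn45s*, other controls, other tools and leaving out libraries.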

Additional observations from a re-analysis of the deposited data

Results flagged for a closer look

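Over the 5 SP libraries, each of the 9 genes was examined by its value and by its ratio to scr of the same set, and 1 of these 18 groups of values had an extreme library beyond Dixon's 95% limit. The ratio of *Dazl* in SP 1a was 2.51 (95% exact counting interval 1.67 to 3.87, from 111 reads against 31 in scr), where those in 1b, 1c, 2 and 3 were 1.02, 0.931, 0.987 and 1.28. Chance puts about 1 in 20 such groups beyond the limit.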

How the results depend on the processing

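The 54 log2 fold changes of the 9 genes were recomputed under 972 alternatives, and 939 kept their direction. With all libraries in, fitting the block or dropping the filter on low values leaves a limma fold change as it was. Those alternatives are among the 939 and could not change the direction. The other 33 changed it: SP 1c alone in set 1 put *Stag3* at −0.039 and *Mael* at −0.030 in SP over 3 sets, and leaving out 1 library, or the 3 SP libraries of set 1 together, did so in the ranges that follow, whose cause was not tested. Without the block these ranges were, in SP over 3 sets, −0.41 to 0.77 for *Stag3*, −1.05 to 0.93 for *Smc1b*, −0.40 to 0.87 for *Dazl* and −0.15 to 0.44 for *Mael*, where −0.41, −0.40 and −0.15 came without all 3 SP libraries of set 1. In sets 2 and 3 they were −0.10 to 0.40 for *Stag3*, −0.40 to 0.77 for *Smc1b*, −0.062 to 0.43 for *Sycp1* and −0.029 to 0.80 for *Sycp3* in SP, −0.079 to 0.93 for *Smc1b* in 3p, −0.11 to 0.39 for *Stag3* in 5p, −0.47 to 0.033 for *Stag3* and −0.27 to 0.92 for *Smc1b* in SATS, and −0.067 to 0.72 for *Smc1b* in 5p against 3p. With the block they were −0.018 to 0.35 for *Dazl* in SP, −0.22 to 0.19 for *Ddx4* in 5p and −0.066 to 0.44 for *Dazl* in SATS.

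The replicate block, which pairs the libraries of a set, moved the calls over all genes from 1, 1, 2, 0 and 0 to 123 in SP, 47 in 3p, 391 in 5p, 436 in SATS and 537 in 5p against 3p of sets 2 and 3, and those among the 9 to 0, 2, 1, 2 and 2. By edgeR with the block there were 134, 50, 397, 550 and 529 genes, and 66 in SP over 3 sets, with 1 of the 9. DESeq2 without the block called 21, 8, 66, 3 and 89 genes, with 1 of the 9 in 5p against 3p, and 1 gene in SP over 3 sets, as did limma with SP 1a alone there. With untreated and luciferase added to the controls the calls were 4 in SP, 2 in 3p and 27 in 5p. With the block as well, chosen after seeing the data, they were 387, 219, 1119 and 1785 in SP, 3p, 5p and SATS, with 1, 4, 2 and 4 of the 9.

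Leaving out 1 library without the block gave 1 gene in 5p each time. With the block, also chosen after seeing the data, it gave 6 to 32 genes in SP, 2 to 49 in 3p, 20 to 421 in 5p, 3 to 722 in SATS and 84 to 650 in 5p against 3p, with 0, 0 to 1, 1, 0 to 2 and 1 to 2 of the 9. Apart from SP in set 1, each group had 1 library per set, which limits the tests, and set 1 had 4 to 42 reads of *Sycp1*, *Rec8*, *Stk31*, *Dazl*, *Ddx4* and *Smc1b* in scr. Without the block, *Sycp3* in 5p against scr was called by neither limma, edgeR nor DESeq2, and in 5p against 3p by DESeq2 alone.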
